A study of Mus musculus with 2 samples.

Results

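The genes described here charge tRNA with amino acids, carry amino acids across the plasma membrane, and make serine, asparagine and one-carbon units under the transcription factor Atf4. They were taken from a list of 43 gene symbols, and every probe set annotated with a single symbol of that list was used. For 42 of the 43 symbols there were such probe sets, 96 in all, among 18193 genes with a single symbol on the array. Dars had none. The list was read as 3 classes, which are the synthetases with the scaffold genes Aimp1 and Aimp2 (21 of 22 measured), the transporters (12 of 12) and the Atf4 pathway genes (9 of 9).

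The study compared mouse embryo fibroblasts (MEFs) of Ebp1 knock out embryos with MEFs of wild type embryos. Both were taken at day 12.5 and both RNAs were harvested at passage 2, from cells grown in medium with fetal bovine serum. In the knock out a retroviral gene trap sits in the second intron of Pa2g4, the gene that encodes Ebp1. The mouse line was kept on a mixed background, partly C57BL/6 and partly the SvEvBrd strain of its embryonic stem cells. One array was hybridized per genotype, so no value here has a spread between replicates, an error or a p-value, and the sources do not say how many embryos went into each RNA.

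An aminoacyl-tRNA synthetase joins 1 kind of amino acid to its tRNA, and several of these enzymes sit in a cytosolic complex that is held together by the scaffold proteins encoded by Aimp1 and Aimp2. When amino acids run short, uncharged tRNA activates the kinase Gcn2, which phosphorylates eIF2α. General translation then slows while translation of the Atf4 mRNA increases, and Atf4 raises transcription of amino acid transporters, synthetases and biosynthetic enzymes. Since Atf4 is controlled largely at the level of its translation, its RNA signal on an array is no measure of Atf4 protein. Ebp1 is known as a protein that associates with ribosomes.

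Signals are in linear intensity units, which the authors scaled to the same target on each array. Pa2g4 read 1178 in knock out MEFs and 1835 in wild type MEFs (log2 of knock out divided by wild type, the log2 ratio hereafter, -0.64), and each of its 5 probe sets was lower on the knock out array (-0.90 to -0.33). Their position relative to the trap is not given, so they check the label only in part. The paper itself reports no Ebp1 transcript by RT-PCR and no Ebp1 protein by Western blot in knock out MEFs. As a sign of RNA integrity, the control signal at the 3' end divided by that at the 5' end was 1.21 in knock out and 1.29 in wild type MEFs for Actb, and 0.800 and 0.949 for Gapdh. On the knock out array the 9 spiked hybridization controls were brighter by a factor of 1.31. All 8 fibroblast markers examined reached 500 on at least 1 array, with a summed signal of 49360.3 in knock out and 47858 in wild type MEFs. The 5 markers Col1a1, Col1a2, Col3a1, Fn1 and Vim had log2 ratios of -0.11 to 0.26, while Thy1 (2784 in knock out and 4173 in wild type MEFs, -0.58), Pdgfrb (1952 and 3098, -0.67) and Pdgfra (201 and 506, -1.33) were lower. The summed signal of 5 epithelial markers was 1759 in knock out and 436 in wild type MEFs, with Epcam at 1350.5 and 174, Krt19 at 197 and 88.0, and Krt8, Krt18 and Cdh1 under 100 on both arrays. Of the 20 other lineage markers measured, from endothelium, macrophages, erythroid cells, neural cells, muscle and liver, only Map2 reached 500 (1059 in knock out and 839.8 in wild type MEFs). The part of other cell types in the values below was not tested.

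On the probe set read for each gene, that with the highest mean log2 signal, the genes of amino acid supply differed little between Ebp1 knock out and wild type MEFs. Of the 42 genes measured, 41 reached 100 intensity units, and all 41 did so on both arrays. None of them differed by over 2-fold on that probe set, whether at a minimum of 500 (0 of 38 genes, where 1.81% of all genes passed) or at a minimum of 100 (0 of 41, 3.52% of all genes). A count of 0 among so few genes lies near these shares. One differed by over 1.5-fold on that probe set, the scaffold gene Aimp2, against 12.6% of all genes that reached 100 (5.27% in the same, higher, direction) and 8.1% of those that reached 500. Probe sets over 100 that were not read went beyond 1.5-fold for Slc7a1 (log2 ratio 0.65), Qars (-0.72) and Slc38a10 (1.24 and 0.69). With 30 of the 41 within 1.2-fold (56.9% of all genes at this minimum, and 64.5% at a minimum of 500), the typical difference was small. The log2 ratios of the 41 ranged from -0.49 to 0.61 with a median of -0.05, beside a median of -0.06 for the 10553 genes that reached 100. The 1.2-fold limit was chosen after the values were seen. These are signals of whole cultures, in which fewer cells of a type and less RNA per cell cannot be told apart.

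**Figure D1:**
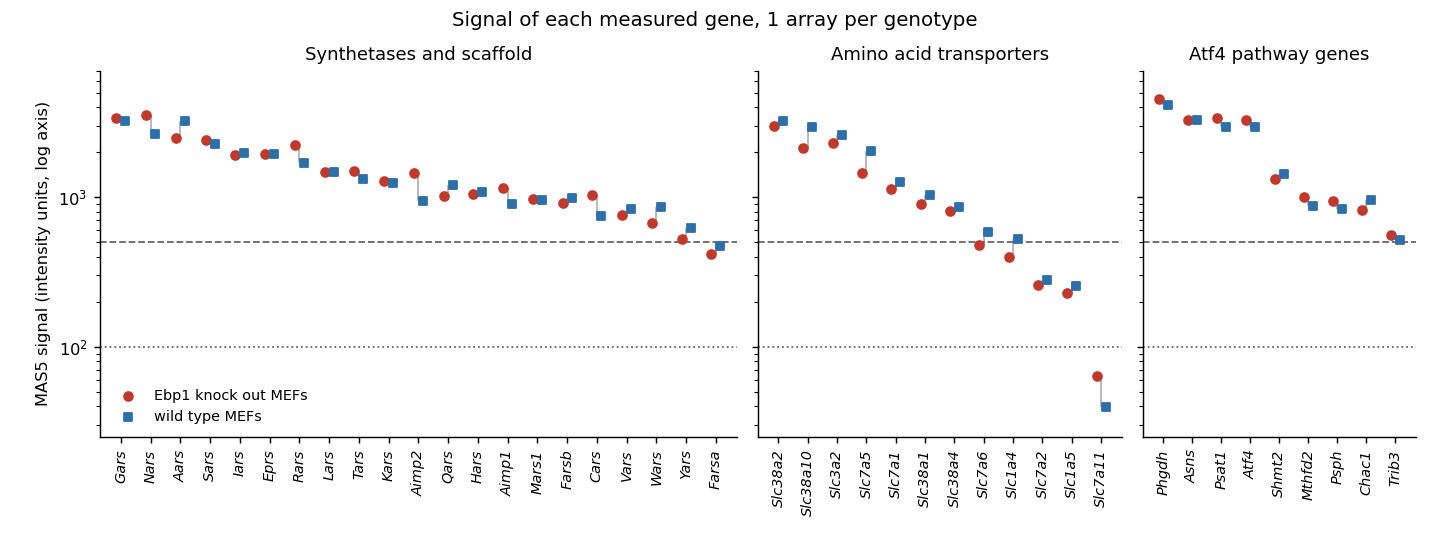
Signal of each of the 42 measured genes in Ebp1 knock out MEFs (red circles) and wild type MEFs (blue squares), 1 array per genotype, on a logarithmic axis of intensity units, with dotted and dashed lines at 100 and 500. The symbols of each pair lie close together for nearly all genes, every transporter above 100 has its knock out symbol below its wild type symbol, and Slc7a11 alone lies under 100. Signals of different genes come from different probe sets and are not comparable with each other.

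The regulatory sequence that links many of these genes to Atf4 is the C/EBP-ATF response element, which Atf4 binds together with a C/EBP partner. The letters TGATGNAA were searched on either strand in windows from 250 bases before to 50 bases after the start site (RefSeq, GRCm38.p6). A window was found for 32 of the 43 genes and it held the element in 10 of them (31.2%), against 1219 of 27025 genes in all (4.51%) and 225 of 8587 genes that reached 100 on these arrays (2.62%). Some of the list are textbook Atf4 targets, so this share describes the list and is not a result of the arrays. The sites are shown because they mark the genes of the list whose promoters carry the letters of this element. They are written 5' to 3' on the strand of the gene, with the element in capitals (TTNCATCA is the element read on the opposite strand), and the distance is that of its first base from the start site.
Aars (chr8:111033841-111033868, plus strand, at 10): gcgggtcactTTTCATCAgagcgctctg
Gars (chr6:55037961-55037988, plus strand, at -30): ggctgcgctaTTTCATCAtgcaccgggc
Iars (chr13:49682127-49682154, plus strand, at 8): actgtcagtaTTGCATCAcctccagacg
Tars (chr15:11399656-11399683, minus strand, at -15): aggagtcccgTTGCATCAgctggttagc
Yars (chr4:129189896-129189923, plus strand, at 4): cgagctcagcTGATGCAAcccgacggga
Slc1a4 (chr11:20332700-20332727, minus strand, at -4): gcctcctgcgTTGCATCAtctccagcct
Slc7a11 (chr3:50443652-50443681, minus strand, at -66 and -47): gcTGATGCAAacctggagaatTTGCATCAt
Asns (chr6:7693215-7693242, minus strand, at -23): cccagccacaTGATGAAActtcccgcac
Chac1 (chr2:119351039-119351066, plus strand, at -193): ttccctgccgTTGCATCActcctgccag
Trib3 (chr2:152344029-152344056, minus strand, at 15): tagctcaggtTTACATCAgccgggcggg
Slc7a11 holds a pair of elements that face each other, with 19 bases between their first letters. A match of these letters is a description and not a binding site, and a window without one says nothing of Atf4 at that gene.

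The genes that hold the element gave ratios on both sides of 0. Of the 10, 9 reached 100 on the arrays, and their log2 ratios ranged from -0.40 (Slc1a4) to 0.18 (Tars) with a median of -0.05, 3 above 0 and 6 below. The 21 genes of the list with a window and no element, of those that reached 100, had a median of 0.01 (11 above 0 and 10 below). Over all genes that reached 100, the median was -0.14 for the 225 with the element (140 below 0) and -0.06 for the 8362 without it (4844 below 0).

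Among the synthetases, most enzymes of the multisynthetase complex were close to equal on both arrays, with Qars and Rars farther apart. Eprs, which encodes the fused synthetase for glutamate and proline, read 1951 in knock out MEFs and 1939 in wild type MEFs (log2 ratio 0.01). Kars, the lysine enzyme, was 1292 in knock out and 1239 in wild type MEFs, and Lars, the leucine enzyme and an amino acid sensor of the mTORC1 pathway, was 1487 and 1467. Mars1, the methionine enzyme, was 977 in knock out and 965 in wild type MEFs. These 4 genes lay within 0.06 of 0 on the log2 scale, although only Eprs among them had more than 1 probe set over 100 (0.01 to 0.26). Iars, which charges isoleucine tRNA, was 1927 in knock out and 1991 in wild type MEFs (-0.05). Qars, which charges glutamine tRNA, was lower on the knock out array (1027 and 1208, log2 ratio -0.23), and on each of its 3 probe sets over 100 (-0.72 to -0.07). Rars, which charges arginine tRNA, was higher on its only probe set (2232 in knock out and 1691 in wild type MEFs, 0.40).

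The scaffold genes of the complex gave the highest ratios with Cars, Nars and Rars. Aimp2 read 1448 in knock out MEFs and 947 in wild type MEFs (log2 ratio 0.61), and its other probe set lay in the same direction (1199.7 and 915, 0.39). Aimp1, whose protein also has a secreted cytokine-like form, was 1154 in knock out and 908 in wild type MEFs (0.34) on its only probe set. The ratio of Aimp2 was 0.22 when the arrays were scaled to the spike-ins and 0.51 when they were centred on the median of all probe sets, so that it was over 1.5-fold under neither. With the median centring the only gene of the list over 1.5-fold was the transporter gene Slc7a5 (-0.59). The median log2 ratio of the 9 measured genes of the complex, Aimp1 and Aimp2 included, was 0.02 (7 above 0), and that of the 12 synthetase genes outside it was -0.07 (5 above 0). Of all genes that reached 100, 41.9% lay above 0. Without Aimp1 and Aimp2 the 7 synthetases of the complex also had a median of 0.02, with 5 above 0. The split by complex was chosen after the values were seen.

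Outside the complex, Cars, the cysteine enzyme, read 1035 in knock out MEFs and 751 in wild type MEFs (log2 ratio 0.46), and its other probe set was dim (4.29 and 8.44). Nars, the asparagine enzyme, was 3557 in knock out and 2632 in wild type MEFs (0.43), and its other probe set was closer to equal (2469 and 2311, 0.10). Both were thus higher on the knock out array, but neither reached 1.5-fold. Gars, which charges glycine tRNA, was 3418 in knock out and 3225 in wild type MEFs (0.08), and Tars, which charges threonine tRNA, was 1497 and 1322 (0.18). Sars, the serine enzyme, was 2411 in knock out and 2280 in wild type MEFs (0.08), with a second probe set on the other side of 0 (-0.27). Hars, the histidine enzyme, was 1053 in knock out and 1078 in wild type MEFs (-0.03), and Vars, the valine enzyme, was 767 and 835 (-0.12). Farsa and Farsb encode the subunits of the phenylalanine enzyme, and they gave like values of 418 in knock out and 473 in wild type MEFs for Farsa (-0.18) and 923 and 994 for Farsb (-0.11), with at least 1 other probe set of each above 0.

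The lowest ratios of the class depended on the probe set. Aars, the alanine enzyme, was 2489 in knock out MEFs and 3224 in wild type MEFs (log2 ratio -0.37) on a probe set whose suffix, _s_at, marks probes shared between transcripts, and 1927 and 1943 (-0.01) on its other probe set. Wars, the tryptophan enzyme, which interferon induces, was 670 in knock out and 866 in wild type MEFs (-0.37) on a probe set with the suffix _x_at, which marks probes that may bind other transcripts. The other 3 probe sets of Wars lay above 0 (0.11 to 0.40), so that without such probe sets its log2 ratio was 0.29. Yars, the tyrosine enzyme, was 525 in knock out and 622 in wild type MEFs (-0.24) on its only probe set. Over the 21 genes of the class the median log2 ratio was 0.02, with 12 above 0, where 41.9% of all genes that reached 100 lay above 0.

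The amino acid transporters were lower on the knock out array on the probe set that was read for each gene. All 11 that reached 100 had a log2 ratio below 0 (58.1% of all genes did), from -0.49 to -0.10 with a median of -0.17, and none differed by over 1.5-fold (7.3% of all genes were over 1.5-fold lower). Slc7a5, which encodes the light chain of the leucine transporter LAT1, read 1446 in knock out MEFs and 2027 in wild type MEFs (log2 ratio -0.49) on its only probe set. Slc3a2 encodes the heavy chain that carries LAT1 to the membrane, and it was 2317 in knock out and 2605 in wild type MEFs (-0.17), also on 1 probe set. Slc7a6, another light chain, which exchanges cationic for neutral amino acids, was 483 in knock out and 587 in wild type MEFs (-0.28). Its other probe set was 536 in knock out and 499 in wild type MEFs (0.10).

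Slc7a11, the light chain that imports cystine for glutathione synthesis, was the only measured gene of the list under 100 on both arrays. Its probe sets gave 63.9 in knock out and 39.6 in wild type MEFs, and 66.2 and 24.8. Of all probe sets, 57.1% in knock out and 57.9% in wild type MEFs lay under 100, and no fold is given at such signals. The pair of facing elements in its promoter is printed above.

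The sodium-coupled transporters of the Slc38 family had a median log2 ratio of -0.17 over 4 genes. Slc38a2 encodes SNAT2, the transporter most known for its induction by amino acid starvation, and it was 2994 in knock out MEFs and 3260 in wild type MEFs (-0.12, or 0.27 on a dimmer probe set, with a further one under 100). Slc38a1, which encodes the glutamine carrier SNAT1, was 896 in knock out and 1040 in wild type MEFs (-0.22, or 0.30 on its other probe set). Slc38a4, an imprinted gene that encodes SNAT4, was 808 in knock out and 867 in wild type MEFs (-0.10), and lower on its other probe set too (-0.39). Slc38a10 was 2143 in knock out and 2948 in wild type MEFs (-0.46). It had the widest spread of the list, since the 4 brightest of its 7 probe sets lay between -0.54 and -0.16, another was under 10 on both arrays, and 2 dim ones, over 100 on the knock out array only, gave 1.24 (211 in knock out and 89.6 in wild type MEFs) and 0.69 (140.03 and 86.8).

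The carriers of small neutral and of cationic amino acids were also lower on the knock out array on the probe sets read. Other probe sets over 100 of Slc1a4 and Slc7a1 lay above 0. Slc1a4, which encodes the alanine and serine carrier ASCT1, was 399 in knock out MEFs and 526 in wild type MEFs (-0.40), while its dimmer probe sets gave 0.05 and 0.50. Slc1a5, which encodes the glutamine carrier ASCT2, was 229 in knock out and 254 in wild type MEFs (-0.15). Slc7a1 encodes the arginine and lysine carrier CAT-1. It was 1139 in knock out and 1261 in wild type MEFs (-0.15) on the probe set with the higher mean signal and 1351 and 862 (0.65) on another that was nearly as bright. Slc7a2, which encodes the related carrier CAT-2, was 258 in knock out and 279.9 in wild type MEFs (-0.12), and its other 3 probe sets were under 100 on both arrays (7.19 to 67.0 in knock out and 2.2 to 65.9 in wild type MEFs).

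**Figure D2:**
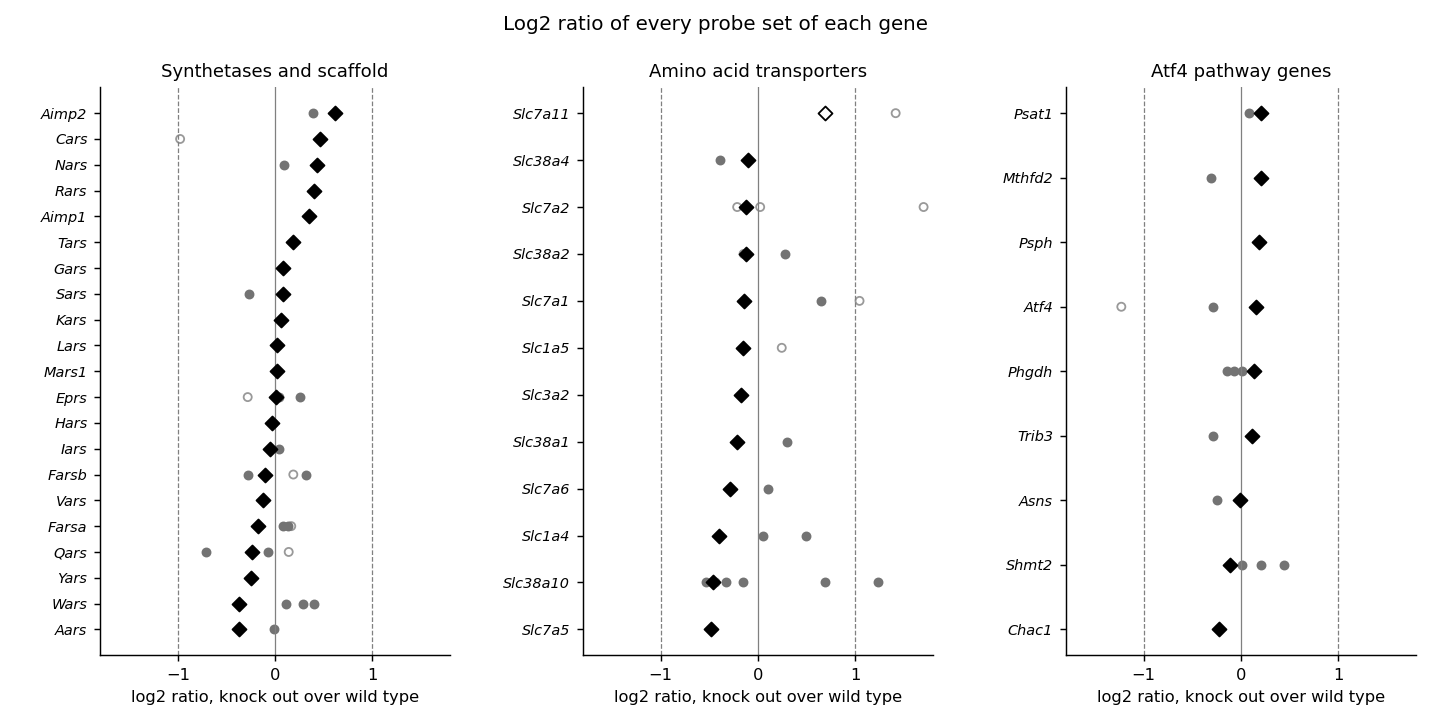
Log2 ratio (knock out divided by wild type) for each probe set of the 42 genes, by class. Diamonds mark the probe set read for each gene (open where it was under 100 on both arrays), grey circles its other probe sets and open circles those under 100 on both arrays, with dashed lines at a 2-fold ratio. The diamonds of the 11 transporters that reached 100 lie between -0.49 and -0.10, while 6 of these genes have another probe set over 100 that lies above 0.

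The direction of the transporters therefore rested on which probe set was read. Of the 7 transporter genes with more than 1 probe set over 100, 6 had probe sets on both sides of 0, and of the 12 such probe sets that were not the brightest of their gene 8 lay above 0. Over all genes the brightest probe sets had a median log2 ratio of -0.06 and the others a median of 0.07 (43.1% below 0). With the mean over the probe sets of each gene that reached 100, 6 of 11 transporters were below 0 and the median was -0.09. By that choice 52.8% of all genes were below 0, with a median of -0.03. Averaging every probe set of a gene left 4 of 11 transporters below 0, with a median of 0.00 (48.5% of all genes below 0, with a median of 0.01). The gap between the probe sets of a gene is not a replicate error. Over the 25 genes of the list with more than 1 probe set over 100 its median was 0.39 on the log2 scale, and 16 of the 25 had probe sets on both sides of 0. How often probe sets lie on both sides of 0 over all genes was not counted. The counts for the transporters and for the list therefore cannot be called particular to them.

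On the probe set read, 9 of 9 Atf4 pathway genes were within 1.2-fold, against 14 of 21 synthetase genes, 7 of 11 transporters and 56.9% of all genes. All 9 reached 500, and at that minimum the share of all genes was 64.5%. Another probe set over 100 lay beyond 1.2-fold for Atf4 (-0.29), Trib3 (-0.29), Mthfd2 (-0.30) and Shmt2 (0.45). Atf4 itself read 3300.1 in knock out MEFs and 2964 in wild type MEFs (log2 ratio 0.15), and -0.29 on its other bright probe set. Asns, which makes asparagine from aspartate and glutamine and is a standard reporter of the pathway, was 3272 in knock out and 3291 in wild type MEFs (-0.01), with -0.25 on its other probe set. Chac1, which degrades glutathione and is induced by Atf4, was 821 in knock out and 958 in wild type MEFs (-0.22). Trib3, a pseudokinase gene that Atf4 induces and whose protein restrains it, was 557 in knock out and 514 in wild type MEFs (0.12), and lay on the other side of 0 on its other probe set (469 and 573, -0.29). The genes of this class that hold the element, Asns, Chac1 and Trib3, thus gave log2 ratios on both sides of 0.

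The enzymes of serine synthesis were slightly higher on the knock out array on the probe sets read. Phgdh, which commits glycolytic carbon to serine, was 4578 in knock out MEFs and 4174 in wild type MEFs (0.13). All 4 of its probe sets carry the suffix _x_at and their log2 ratios ran from -0.14 to 0.13. Psat1, the aminotransferase of the next step, was 3397 in knock out and 2938 in wild type MEFs (0.21), and also above 0 on its other probe set (0.08). Psph, the phosphatase of the last step, was 951 in knock out and 832 in wild type MEFs (0.19) on its only probe set. The mitochondrial folate enzymes that take up serine carbon were Shmt2, at 1330.4 in knock out and 1436 in wild type MEFs (-0.11), and Mthfd2, at 1003 and 869.9 (0.21). Each of these folate genes had probe sets on both sides of 0, from -0.11 to 0.45 for Shmt2 and from -0.30 to 0.21 for Mthfd2.

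Set side by side, the median log2 ratio was 0.02 for the 21 synthetase genes, -0.17 for the 11 transporters and 0.13 for the 9 Atf4 pathway genes. The transporters lay 0.19 below the synthetases, and the synthetases 0.12 below the Atf4 pathway genes. With 1 array per genotype neither gap has a test.

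**Figure D3:**
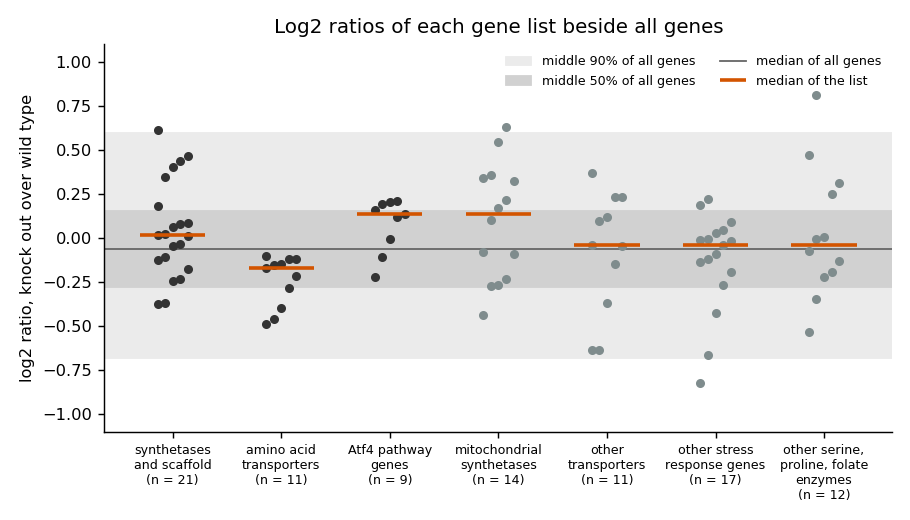
Log2 ratio (knock out divided by wild type) of each gene that reached 100 on at least 1 array, for the 3 classes (black) and 4 lists of related genes (grey), with the number of genes under each list. Orange bars are list medians, and the grey bands hold the middle 50% (-0.28 to 0.15) and the middle 90% (-0.68 to 0.60) of the 10553 genes that reached 100. The list medians run from -0.17 for the transporters to 0.14 for the mitochondrial synthetases.

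Of the 4 lists of related genes, none held a gene over 2-fold apart at a minimum of 100 (3.52% of all genes). Each of these genes was read on 1 probe set, and its other probe sets were not compared. The mitochondrial synthetase genes examined, none of which is among the synthetase genes above, reached 100 for 14 of the 16 measured, with a median of 0.14. Of the 14, 8 lay above 0 (41.9% of all genes) and 6 below, and 1, Tars2, was over 1.5-fold higher (5.27% of all genes). They were dim, and only Rars2, the arginine enzyme, reached 500 (522 in knock out MEFs and 629 in wild type MEFs, -0.27). Iars2, the isoleucine enzyme, was 291 in knock out and 353 in wild type MEFs (-0.27), and Fars2, the phenylalanine enzyme, was 297 and 277 (0.10). Of 20 other amino acid transporters 11 reached 100, with a median of -0.04 and 6 below 0 (58.1% of all genes). Among them the taurine transporter gene Slc6a6 was 2342 in knock out and 1996 in wild type MEFs (0.23), and the glycine transporter gene Slc6a9 was 761 and 783 (-0.04). Over 1.5-fold lower were 2 of the 11 (7.3% of all genes), Slc38a6 at 434 in knock out and 676 in wild type MEFs (-0.64) and Slc7a8 at 88.0 and 137 (-0.64), the second named after its values were seen. The wider transporter list thus had members on both sides of 0.

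Of 17 measured genes of the integrated stress response, all reached 100, with a median of -0.04, 5 above 0 and 12 below (58.1% of all genes below). Over 1.5-fold lower were 2 of the 17 (7.3% of all genes), Vldlr, at 512 in knock out and 811 in wild type MEFs, and Eif2ak2. Ddit3, which encodes the stress factor CHOP, was 881 in knock out MEFs and 888 in wild type MEFs (-0.01), and it is named after its values were seen. Atf5, a factor that is translated under the same control as Atf4, was 3388 in knock out and 3609.5 in wild type MEFs (-0.09). Eif4ebp1, which encodes a translation repressor and Atf4 target, was 3988 in knock out and 4099 in wild type MEFs (-0.04). The stress-induced gene Nupr1 was 2071 in knock out and 2029.5 in wild type MEFs (0.03). The kinase genes upstream were lower, with Eif2ak4, which encodes Gcn2, at 213 in knock out and 256 in wild type MEFs (-0.27) and the interferon-induced Eif2ak2, which encodes PKR, at 198 and 351 (-0.83), these 2 and Vldlr named after their values were seen. Of 15 other measured enzymes of serine, proline and folate metabolism 12 reached 100, with a median of -0.04. Aldh18a1, which starts proline synthesis, was 2445 in knock out and 2855 in wild type MEFs (-0.22). Got2, the mitochondrial aspartate aminotransferase gene, was 2199 in knock out and 2319 in wild type MEFs (-0.08), and the mitochondrial folate gene Aldh1l2 was 1290.4 and 1413 (-0.13). Cth, which makes cysteine, was the 1 gene of these 12 over 1.5-fold apart (445 and 254, 0.81), where 12.6% of all genes were. It is named after its values were seen.

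**Figure D4:**
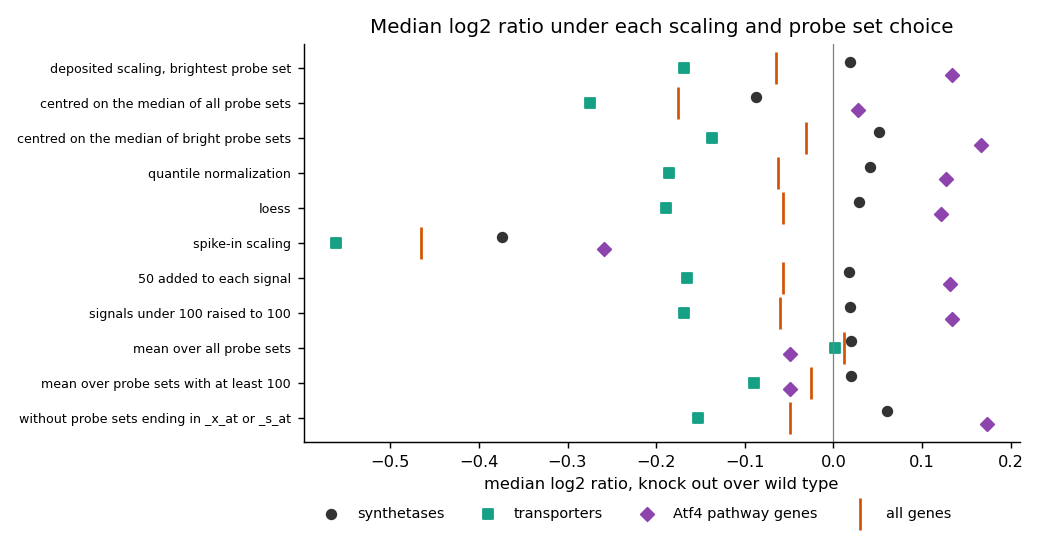
Median log2 ratio of the synthetases (black circles), transporters (green squares) and Atf4 pathway genes (purple diamonds) under the deposited values and 10 alternative scalings and probe set choices, with the median of all genes that reached 100 as an orange bar. The transporters lie to the left of the synthetases in each row, and of the Atf4 pathway genes in each row but the mean over all probe sets, and spike-in scaling moves all medians to the left, to -0.56 for the transporters.

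The place of 0 moved with the scaling of the arrays. Centring on a median and scaling to the spike-ins shift all genes alike and cannot alter the order of the classes, and quantile normalization and loess, which could, left the transporters lowest and the Atf4 pathway genes highest. Centring on the median of all probe sets put the synthetases at -0.09 and scaling to the spike-ins put all 3 classes below 0, at -0.37 for the synthetases, -0.56 for the transporters and -0.26 for the Atf4 pathway genes, with all genes at -0.47. Under spike-in scaling 90.8% of all genes lay below 0. There 10 of the 41 genes of the list were over 1.5-fold lower, 5 of them transporters. The share of all genes over 1.5-fold lower at that scaling was not counted. The mean over probe sets turned the Atf4 pathway genes to -0.05, below the synthetases at 0.02. None of the genes was over 2-fold apart at a minimum of 500 under any of these alternatives.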

How the data were processed

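RNA from Ebp1 knock out and wild type MEFs was hybridized to 1 mouse Affymetrix array each. The deposited values are MAS5 signal intensities, which the authors brought to 1 common target level per array. The array type in the study's text differs from the mouse probe sets in the data. The 64 control probe sets were left out, and 34945 probe sets had 1 gene symbol, 932 several and 9160 none. Only those with 1 symbol were used, and 18032 of 18193 genes matched the reference by Entrez identifier.

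Each gene was read on the probe set with the highest mean log2 signal, as the log2 ratio of knock out to wild type, where it reached 100 (or 500, the minimum in the study's methods) on at least 1 array. The p-value filter of those methods was not used. No test was run. The genes and lists were chosen with earlier results of these data known. All members that reached 100 are named, those described with all probe sets were the 3 brightest, 2 highest and 2 lowest of each class, and for related lists the 3 brightest. Alternatives were 5 scalings, 2 treatments of low signals, 3 choices of probe set and 3 minimums, with a 1.5-fold limit and shorter lists. The calculation was tested on simulated data with 200 altered genes. Promoter windows came from RefSeq (GRCm38.p6). One promoter sequence is not reported here. Python 3.11.15, numpy 2.4.6, pandas 2.3.3, scipy 1.17.1, statsmodels 0.14.6 and matplotlib 3.10.9 were used. Array number, at 1 per genotype, limits the precision.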

Additional observations from a re-analysis of the deposited data

How the results depend on the processing

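No paired analysis was possible because each genotype has 1 array. No gene of the list was over 2-fold apart at a minimum of 500 under the alternative scalings, probe set choices and minimums, and with the deposited scaling 1 (Aimp2) was at a limit of 1.5-fold. The number over 1.5-fold at a minimum of 100, which was 1, became 10 with spike-in scaling (all lower in knock out MEFs, Aimp2 not among them), 0 with the mean over all probe sets, 0 with the mean over those of at least 100, and 2 with no minimum. Spike-in scaling put 90.8% of all genes below 0, with a median of -0.47. The share of all genes over 1.5-fold at that scaling was not counted, so the 10 cannot be read as more than among all genes. Over all genes the 91 over 2-fold at 500 became 267 with spike-in scaling, 23 with the minimum on both arrays, 371 with a minimum of 100 and 2354 with no minimum. Of 409 single-gene values under alternatives, 4 differed by over 1.5-fold from the value given (Cars, Slc7a1 and Atf4 with the mean over all probe sets, at -0.26, 0.52 and -0.45, and Wars without _x_at and _s_at probe sets, at 0.29) and 58 changed sign, 17 of them with the mean over all probe sets and 14 with spike-in scaling, for which the cause was not tested.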
